A study of Mus musculus with 24 samples.

Results

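Satellite glia are the flat glial cells that wrap the cell bodies of sensory neurons in the dorsal root ganglion (DRG). The data described here are those of 9 genes used as markers of these cells, *Glul*, *Slc1a3*, *Slc1a2*, *Gja1*, *Fabp7*, *Apoe*, *Gfap*, *S100b* and *Cdh19*. They were taken by gene name from the annotation of the arrays, with every probe that is not a control, which gave 18 probes for the 9 genes among 41174 probes for 27398 gene names. *Glul* was higher after a lesion of the sciatic nerve in both genotypes and at both time points, and *Fabp7* was lower at day 2. *Gfap* was higher on its brightest probe, from a level near background. None of the 9 genes differed between *Nfil3* knockout (KO) and wildtype (WT) mice beyond the spread between samples.

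RNA came from L4 and L5 DRGs of adult male C57BL/6J mice that received a sciatic nerve lesion, after which the nerve ends were coaptated, that is, joined again. There were 6 groups of 4 samples: WT and *Nfil3* KO, each as control DRGs of the non-injured side, as DRGs at day 2 and as DRGs at day 5 post-lesion. The KO allele is a germline deletion made by crossing mice with a loxP-flanked *Nfil3* to mice with Cre active in germ cells, so it was not limited to any cell type of the ganglion. The control DRGs were thus contralateral ganglia of operated animals, and control DRGs of WT mice serve as the reference of both WT time points, as those of KO mice do for KO. Whether samples came from pooled animals, or control and lesioned samples from the same animals, is not given in the sources used here, so p-values measure the spread between these samples. The tissue is labelled as DRG neurons, but whole ganglia were dissected: 8 of the 9 satellite glia genes, 10 of 10 markers of myelinating Schwann cells and 12 of 12 of sensory neurons were well above background in all 24 samples. In bulk RNA, fewer cells of a type and less RNA per cell cannot be told apart.

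Satellite glia take up glutamate and potassium released around the neuron, turn glutamate into glutamine, and are coupled to each other by gap junctions. After injury of a peripheral nerve they are known to become reactive around the axotomized neurons, with more intermediate filament protein and altered coupling. None of the 9 genes is restricted to these cells: *S100b* and *Cdh19* are also expressed by Schwann cells, and *Apoe* and *Glul* also by macrophages.

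All values are log2 intensities after background correction and quantile normalization, and the probe with the highest mean over the 24 samples stands for a gene. Levels of different probes are not compared, since probes bind with different strength. A probe is called well above background where Feature Extraction, the scanner software, marked it so. A probe with several spots was called so where at least as many of its spots were marked as not, a rule chosen here. The sequences of the probes that carry the results are shown first, because for *Gfap* the result rests on 1 of 3 probes and for *Glul* it is the same on 3 of 3. *Gfap* lies on the minus strand of chromosome 11, with A_52_P52303 at chr11:102751813-102751872 in mm9 and A_51_P395056 at chr11:102748916-102748976. *Glul* lies on the plus strand of chromosome 1, with A_52_P101279 at chr1:155756750-155756809, A_51_P441798 at chr1:155755785-155755844 and A_52_P143866 at chr1:155751765-155751824. *Fabp7* (A_51_P290074, chr10:57508039-57508098, plus strand), *Gja1* (A_52_P174915, chr10:56109814-56109873, plus strand) and *Cdh19* (A_52_P610113, within chr1:112786762-112789817, minus strand, a span of 3056 bases for a probe of 60 bases, which thus crosses an exon junction) have a single probe each. The probes, 5′ to 3′ as on the array, read:
Gfap A_52_P52303: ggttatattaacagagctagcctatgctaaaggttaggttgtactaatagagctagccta
Gfap A_51_P395056: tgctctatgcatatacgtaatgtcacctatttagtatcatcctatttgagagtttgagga
Glul A_52_P101279: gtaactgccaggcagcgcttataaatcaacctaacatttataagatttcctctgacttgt
Glul A_51_P441798: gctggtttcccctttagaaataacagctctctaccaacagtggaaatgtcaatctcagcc
Glul A_52_P143866: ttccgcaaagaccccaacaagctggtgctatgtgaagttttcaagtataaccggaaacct
Fabp7 A_51_P290074: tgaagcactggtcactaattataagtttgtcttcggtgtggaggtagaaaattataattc
Gja1 A_52_P174915: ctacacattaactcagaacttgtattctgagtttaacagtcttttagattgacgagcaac
Cdh19 A_52_P610113: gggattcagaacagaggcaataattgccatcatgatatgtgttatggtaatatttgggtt

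The share of probes well above background ranged from 54.5% to 72.3% over the samples, and 0 spots were saturated. The targeted gene separated the genotypes with an exception: *Nfil3* was 8.44 to 11.08 in the 12 WT samples and 2.82 to 6.22 in 11 of the 12 KO samples, while the sample labelled KO control 4 had 7.59. Another field of that sample's labels gives day 5, while its title, by which it was grouped, gives the control. Each array carried 2 samples, and 4 of the 12 arrays carried a control together with a lesioned sample of the same genotype. In the 4 controls on these arrays, *Sprr1a*, a gene induced in injured neurons, was 8.15 to 11.71, against 5.48 to 6.11 in the other 4 controls and 12.60 to 15.80 in lesioned samples. Member counts are therefore also given without the sample labelled KO control 4 and without these 4 arrays, an alternative chosen after seeing the data. The part of the shared arrays in the results was not tested.

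**Figure D1:**
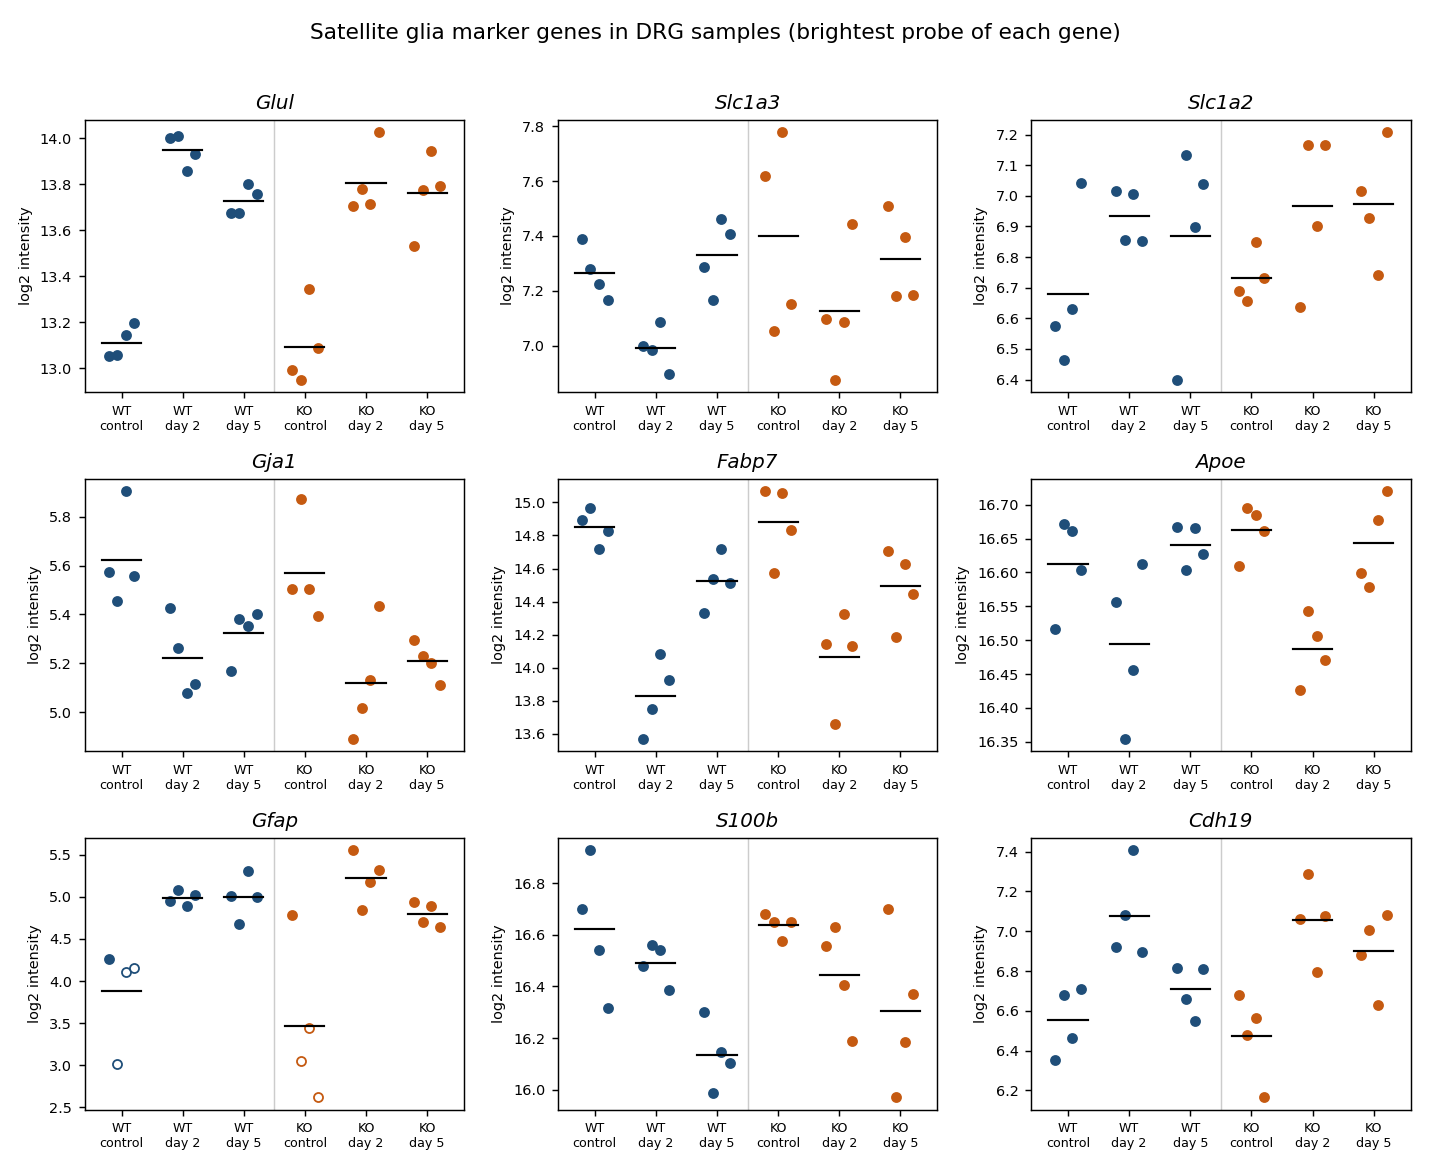
Log2 intensity (y axis) of the brightest probe of each gene in every sample (points, 4 per group) of the 6 groups (x axis), with WT in blue, KO in orange and the group mean as a line; open points were not well above background, and each y axis has its own range. The *Glul* controls, at 12.95 to 13.34, lie below all lesioned samples of both genotypes, and open points occur for *Gfap* alone, in 3 of 4 controls of each genotype.

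Across both time points and genotypes, 7 of the 9 genes changed with the lesion (limma F test, Benjamini-Hochberg adjusted p under 0.05), where 26.3% of all gene names did. The genes that did not pass were the 2 glutamate transporters. At day 2 in WT, 3 genes were higher (*Glul*, *Gfap* and *Cdh19*; 5.16% of all gene names were called higher) and 2 were lower (*Fabp7* and *Gja1*; 6.06% of all were called lower). The same 5 genes passed in the same directions at day 2 in KO, where 5.54% of all gene names were called higher and 6.4% lower. At day 5 in WT, *Gfap* and *Glul* were higher (background 6.43%) and *S100b* was lower (background 7.49%). At day 5 in KO, *Gfap* and *Glul* were higher (background 6.14%) and 0 members were called lower (background 6.7%). The median change of the 9 genes was -0.12 at day 2 and 0.07 at day 5 in WT and -0.18 and -0.02 in KO, against -0.03, -0.03, -0.01 and -0.03 over all gene names, so the list as a whole did not shift to one side.

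**Figure D2:**
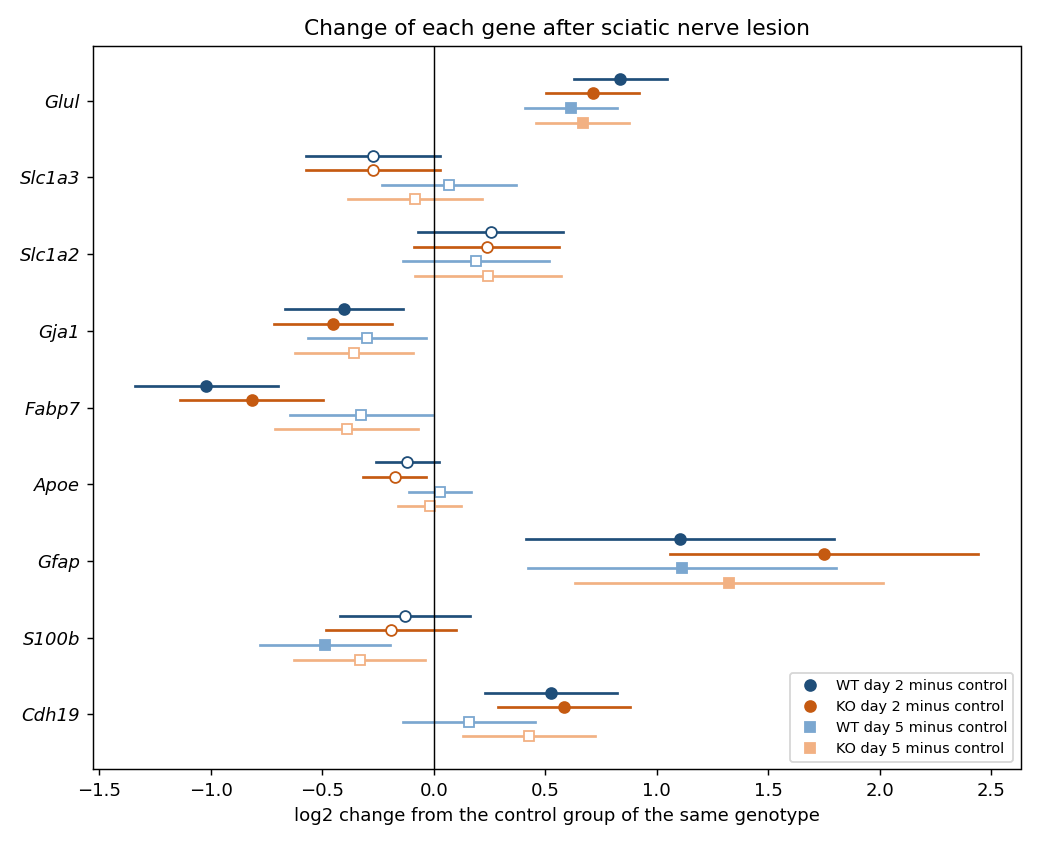
Log2 change from the control group of the same genotype (x axis) for the brightest probe of each gene (y axis), at day 2 (circles) and day 5 (squares) in WT (blue) and KO (orange), with 95% confidence intervals of the limma fit as bars; filled symbols passed an adjusted p of 0.05. *Gfap* has the widest intervals, with changes from 1.10 to 1.75, and the changes of *Glul* lie between 0.61 and 0.84.

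Among the genes of glutamate handling, *Glul* encodes glutamine synthetase, the enzyme that makes glutamine from glutamate and ammonia and a defining marker of satellite glia in the ganglion. In WT samples its log2 intensity was 13.05, 13.06, 13.14 and 13.19 in the controls, 14.00, 14.01, 13.86 and 13.93 at day 2, and 13.68, 13.68, 13.80 and 13.76 at day 5. In KO it was 12.99, 12.95, 13.34 and 13.09 in the controls, 13.70, 13.78, 13.71 and 14.02 at day 2, and 13.53, 13.77, 13.94 and 13.79 at day 5. Every lesioned sample was above every control of either genotype. The rise was 1.79-fold at day 2 in WT (log2 change 0.84 ± 0.10, standard error; limma adjusted p = 9.18e-06) and 1.64-fold in KO (0.71 ± 0.10; adjusted p = 6.3e-05). At day 5 it was 1.53-fold in WT (0.61 ± 0.10; limma adjusted p = 0.000226) and 1.59-fold in KO (0.67 ± 0.10; adjusted p = 0.000103). The difference between day 5 and day 2 in WT, -0.22, did not pass (limma adjusted p = 0.491).

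The other *Glul* probes, whose sequences are given above, moved the same way. A_52_P143866, the probe nearest the 5′ end of the gene, changed by 1.14 and 0.81 in WT and by 0.83 and 0.71 in KO at day 2 and day 5, and A_51_P441798 by 0.99, 0.65, 0.79 and 0.72. All 8 of these changes passed (limma adjusted p from 1.83e-06 to 0.0188), and groups overlapped in 1 of them, A_51_P441798 at day 2 in KO. Within each of the 3 slides, lesioned minus control samples of both genotypes differed by 0.59 to 0.91 at day 2 and by 0.61 to 0.71 at day 5. On the 4 arrays shared by a control and a lesioned sample, the lesioned sample was higher by 0.48 to 0.87. All 4 calls of *Glul* were kept with each sample left out in turn. Without the 4 shared arrays the KO day 5 call was lost, with a change of 0.61 (limma adjusted p = 0.0531).

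*Slc1a3*, which encodes the glutamate transporter GLAST, ranged from 7.17 to 7.39 in WT controls, from 6.90 to 7.09 at day 2 and from 7.17 to 7.46 at day 5. In KO the ranges were 7.05 to 7.78, 6.88 to 7.44 and 7.18 to 7.51. The WT day 2 samples lay below all WT controls, and groups overlapped in the other 3 comparisons with control. The changes at day 2 were -0.27 ± 0.14 in both genotypes (limma adjusted p = 0.286 in WT and 0.259 in KO), and those at day 5 were 0.07 and -0.08. A second probe, A_52_P378975 (chr15:8630573-8630632 in mm9), passed the lesion test (limma adjusted p = 0.00483) where the brightest probe did not (adjusted p = 0.0763). It was lower at day 2 in KO by -0.70 ± 0.21 (limma adjusted p = 0.0346), with 4.14 to 4.85 against 5.09 to 5.24 in the controls, while its WT change of -0.49 did not pass (adjusted p = 0.164). Of the KO day 2 samples, 2 of 4 were well above background on it, as were 20 of all 24. The remaining probe of *Slc1a3* exceeded background in 0 of 24 samples.

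*Slc1a2* encodes GLT-1, a further glutamate transporter of glia. Its brightest probe, at chr2:102630843-102630902, gave 6.46 to 7.04 in WT controls, 6.85 to 7.01 at day 2 and 6.40 to 7.13 at day 5, and 6.66 to 6.85, 6.64 to 7.17 and 6.74 to 7.21 in KO. All groups overlapped with their controls. The 4 changes were 0.19 to 0.25, each with a standard error of 0.16, and 0 of 4 passed (limma adjusted p from 0.38 to 0.555). The other 3 probes of *Slc1a2* gave changes from -0.41 to 0.48, of which 0 of 12 passed. For A_52_P168496 the mean change of both genotypes at day 2 was 0.47 (limma adjusted p = 0.035).

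*Gja1* encodes connexin 43, a gap junction protein that couples satellite glia. It was 5.57, 5.46, 5.90 and 5.56 in WT controls, 5.43, 5.26, 5.08 and 5.12 at day 2, and 5.17, 5.38, 5.35 and 5.40 at day 5. In KO it was 5.50, 5.87, 5.50 and 5.39 in controls, 4.89, 5.02, 5.13 and 5.43 at day 2, and 5.29, 5.23, 5.20 and 5.11 at day 5. The groups did not overlap in WT at either time point or in KO at day 5, and in KO at day 2 a single lesioned sample reached above the lowest control. The level at day 2 was 0.756-fold of control in WT (log2 change -0.40 ± 0.13; limma adjusted p = 0.0479) and 0.732-fold in KO (-0.45 ± 0.13; adjusted p = 0.0251). At day 5 the changes were -0.30 and -0.36 and did not pass (limma adjusted p = 0.148 and 0.0749). The day 2 calls lay close to the threshold. The WT call was lost without WT control 1, 3 or 4 or WT day 2 replicate 2, 3 or 4 (changes from -0.31 to -0.42; limma adjusted p from 0.0653 to 0.175), and the KO call without KO day 2 replicate 1 or 2 or KO control 2 (adjusted p from 0.0654 to 0.0993). Of 15 other alternatives the WT call was kept in 7, and it was lost with normexp and an offset of 50 (-0.16), processed signals (-0.49), the median foreground (-0.41), loess and Aquantile (-0.38), dye, replicate number or an intensity trend in the model (-0.40 each), and without the 4 shared arrays (-0.48), with limma adjusted p from 0.0521 to 0.197. Within slides the difference of lesioned and control samples was -0.41 to -0.40 at day 2 and -0.39 to -0.25 at day 5.

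*Fabp7* encodes brain lipid-binding protein, a fatty acid carrier of satellite glia and of immature glia elsewhere. It was 14.90, 14.97, 14.72 and 14.82 in WT controls, 13.57, 13.75, 14.08 and 13.92 at day 2, and 14.33, 14.53, 14.72 and 14.51 at day 5. In KO it was 15.07, 14.57, 15.06 and 14.83 in controls, 14.14, 13.66, 14.33 and 14.13 at day 2, and 14.70, 14.18, 14.63 and 14.45 at day 5. All day 2 samples were below all controls of either genotype, and the WT day 5 samples lay between the other WT groups, while the KO day 5 samples overlapped with both other KO groups. At day 2 the level was 0.493-fold of control in WT (-1.02 ± 0.15; limma adjusted p = 0.00015) and 0.568-fold in KO (-0.82 ± 0.15; adjusted p = 0.00132). At day 5 the changes were -0.33 ± 0.15 in WT and -0.39 ± 0.15 in KO (limma adjusted p = 0.202 and 0.116, not past the threshold).

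*Fabp7* was also the single member called between the time points. In WT it was higher at day 5 than at day 2 by 0.69 ± 0.15 (limma adjusted p = 0.0398), where 0.599% of all gene names were called higher. In KO the same difference was 0.43 ± 0.15 (limma adjusted p = 0.283). Of the 9 genes 0 passed there, with 2 at an unadjusted p under 0.05, beside 0.975% of all gene names. Over the 6 groups the order of the means was day 2, day 5 and control in both genotypes, and WT and KO did not differ beyond their spread at any of the 3, for instance at day 5 with 14.52 ± 0.16 in WT and 14.49 ± 0.23 in KO (SD, n = 4). The slides were not balanced over these groups: WT day 2 samples were on slides 2 and 3 and WT day 5 samples on slides 1 and 3. With slide as a block the WT difference was 0.60 and did not pass (limma adjusted p = 0.0776), nor did it with processed signals scaled to the 75th percentile (0.66; 0.0563) or without the 4 shared arrays (0.72; 0.309). Within slide 3, with 2 samples of each, it was 0.86. The WT call between the time points was lost in 12 of the 24 fits with a sample left out, namely without any of the 4 WT day 5 samples, WT day 2 replicate 1, 2 or 4, WT control 1, 2 or 3, the sample labelled KO control 4, or KO day 5 replicate 4. The day 2 calls against control were kept in 8 of 8 such fits in each genotype. On the 2 arrays that carried a day 2 and a day 5 sample of the same genotype, the day 5 sample was higher by 0.94 in WT and by 0.79 in KO.

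*Apoe*, the lipid carrier secreted by glia and macrophages, was among the brightest probes of the array, ranked 17 from the top of 41174 by its mean, and was measured by 10 spots per array. It ranged from 16.52 to 16.67 in WT controls, 16.35 to 16.61 at day 2 and 16.60 to 16.67 at day 5, and from 16.61 to 16.70, 16.43 to 16.54 and 16.58 to 16.72 in KO. The KO day 2 samples were below all KO controls, and the other groups overlapped with their controls. The lesion test passed (limma adjusted p = 0.0304), but 0 of the 4 changes against control did, the largest being -0.18 ± 0.07 at day 2 in KO (adjusted p = 0.105). The mean change of both genotypes at day 2, -0.15, passed (limma adjusted p = 0.0318). With processed signals scaled to the 75th percentile, the WT change at day 2 was 0.01 in place of -0.12 and the KO change -0.12, so no direction is given for *Apoe* in WT.

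*Gfap* encodes the intermediate filament protein that marks reactive astrocytes and, after nerve injury, reactive satellite glia. On its brightest probe it was 4.26, 3.01, 4.11 and 4.15 in WT controls, 4.95, 5.09, 4.89 and 5.02 at day 2, and 5.01, 4.68, 5.30 and 5.00 at day 5. In KO it was 4.78, 3.05, 3.44 and 2.62 in controls, 5.55, 4.84, 5.17 and 5.32 at day 2, and 4.94, 4.70, 4.89 and 4.64 at day 5. A single control of each genotype was well above background (WT control 1 and KO control 1), against all 16 lesioned samples, and the groups overlapped only at day 5 in KO, with KO control 1. The change was 1.10 ± 0.33 at day 2 and 1.11 ± 0.33 at day 5 in WT (limma adjusted p = 0.037 and 0.0286), and 1.75 ± 0.33 and 1.32 ± 0.33 in KO (adjusted p = 0.0014 and 0.0109).

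Since the controls lay near background, the size of the *Gfap* change depended on the background correction. At day 2 it was 0.39 in WT and 0.45 in KO without correction, 0.27 and 0.41 with normexp and an offset of 50, and 2.04 and 2.31 with processed signals scaled to the 75th percentile. All 6 of these passed. The KO day 5 call was lost without background correction, at 0.24 (limma adjusted p = 0.0673). In WT the calls were lost with the median foreground (adjusted p = 0.145 at day 2 and 0.131 at day 5) and with loess and Aquantile normalization (0.0768 and 0.0599). They also rested on single samples: without WT control 2, the lowest of the WT controls, the day 2 change was 0.81 (limma adjusted p = 0.142) and the day 5 change 0.82 (adjusted p = 0.125). The day 2 call was lost likewise without WT control 3 or any of the 4 WT day 2 samples (adjusted p from 0.056 to 0.09), and the day 5 call without WT day 5 replicate 1, 3 or 4 (0.0601 to 0.0827). Both KO calls were kept in 8 of 8 such fits, with changes from 1.47 to 2.19 at day 2 and from 1.04 to 1.76 at day 5.

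The other *Gfap* probes did not pass in any of the 4 comparisons. A_52_P540991, which exceeded background in 8 of 24 samples, gave 0.01 and -0.15 in WT and 0.60 and 0.16 in KO (limma adjusted p from 0.211 to 0.996). A_51_P395056 was well above background in 0 of 24 samples, so its values of 1.05 to 3.29 give no level. Its changes of 0.48 to 0.97 had limma adjusted p-values from 0.057 to 0.427, and its lesion test passed (adjusted p = 0.0134). The direction of *Gfap* in these ganglia thus rests on the probe at chr11:102751813-102751872. The array annotation lists that probe under transcript variant 1 of *Gfap* and A_52_P540991 under variant 2. Whether the variants differ was not tested.

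**Figure D3:**
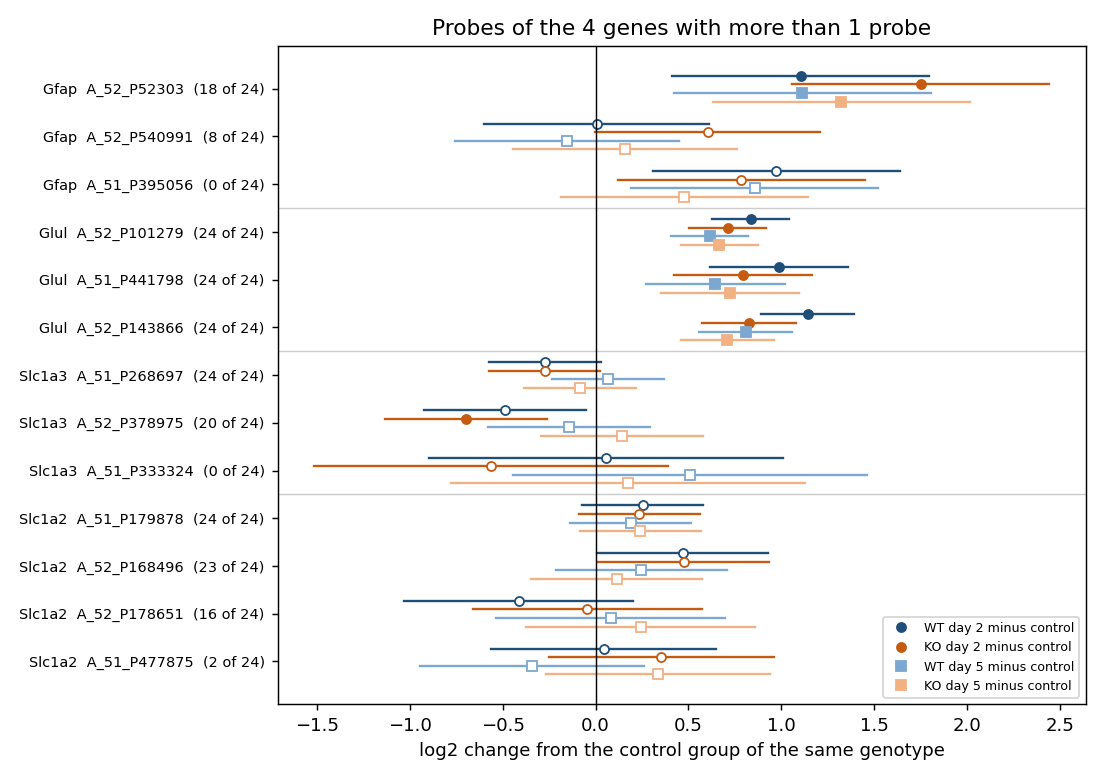
Log2 change from control (x axis) for each probe (y axis) of the 4 genes with more than 1 probe, at day 2 (circles) and day 5 (squares) in WT (blue) and KO (orange), with 95% confidence intervals as bars; filled symbols passed an adjusted p of 0.05, and the number of samples in which the probe was well above background is given in brackets. All 3 *Glul* probes lie to the right of 0, while A_52_P540991 of *Gfap*, at -0.15 to 0.60, does not follow the brightest *Gfap* probe.

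*S100b* encodes a calcium-binding protein of glia. It was 16.70, 16.93, 16.54 and 16.32 in WT controls, 16.48, 16.56, 16.54 and 16.39 at day 2, and 16.30, 15.99, 16.15 and 16.10 at day 5. In KO it was 16.68, 16.65, 16.58 and 16.65 in controls, 16.56, 16.63, 16.41 and 16.19 at day 2, and 16.70, 15.97, 16.19 and 16.37 at day 5. The WT day 5 samples lay below all WT controls, the highest of them close to WT control 4, and the other groups overlapped with their controls. Only the WT change at day 5 passed, at 0.713-fold (-0.49 ± 0.14; limma adjusted p = 0.0241), beside -0.33 ± 0.14 in KO (adjusted p = 0.152). That call was lost without WT control 1 or 2 or WT day 5 replicate 2 or 4 (changes from -0.38 to -0.48; adjusted p from 0.0578 to 0.103) and with processed signals scaled to the 75th percentile (-0.37; adjusted p = 0.132). Without KO day 5 replicate 1, the KO change at day 5 passed as well (-0.46; limma adjusted p = 0.0301). The interaction of lesion and genotype at day 5 was 0.16, with a 95% confidence interval from -0.26 to 0.57, so a difference between WT and KO in this change was not shown.

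*Cdh19* encodes a cadherin of the Schwann cell lineage and satellite glia. It was 6.35, 6.68, 6.46 and 6.71 in WT controls, 6.92, 7.08, 7.41 and 6.90 at day 2, and 6.81, 6.66, 6.55 and 6.81 at day 5. In KO it was 6.68, 6.48, 6.56 and 6.16 in controls, 7.06, 7.29, 6.79 and 7.08 at day 2, and 6.88, 7.0, 6.63 and 7.08 at day 5. All day 2 samples were above all controls, and at day 5 groups overlapped in both genotypes. The rise at day 2 was 1.44-fold in WT (0.52 ± 0.14; limma adjusted p = 0.0207) and 1.5-fold in KO (0.58 ± 0.14; adjusted p = 0.00997). At day 5 it was 0.16 ± 0.14 in WT and 0.43 ± 0.14 in KO (limma adjusted p = 0.606 and 0.0555). The WT call was lost without WT control 1 or 3 or WT day 2 replicate 2 or 3 (changes from 0.41 to 0.52; adjusted p from 0.0509 to 0.0855).

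With the sample labelled KO control 4 left out, the counts of members called were the same in the lesion test (7), at day 2 (5 in each genotype) and at day 5 (3 in WT and 2 in KO). Without the 4 arrays that carried a control and a lesioned sample, 5 members passed the lesion test, 3 passed at day 2 in each genotype, and 2 in WT and 1 in KO at day 5. In this smaller set *Glul* and *Fabp7* still passed at day 2 in both genotypes. *Gfap* changed at day 2 by 0.79 in WT (limma adjusted p = 0.0532) and by 2.00 in KO (adjusted p = 0.000144). The KO day 2 calls of *Cdh19* (0.62; adjusted p = 0.0554) and *Gja1* (-0.57; 0.0991), the WT day 2 call of *Gja1* (-0.48; 0.197) and the WT day 5 call of *S100b* (-0.44; 0.185) were lost.

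KO and WT DRGs were compared at each time point to ask whether loss of *Nfil3* alters these genes. In limma 0 of the 9 genes passed by their brightest probe in each of the 3 comparisons, and 0 reached an unadjusted p under 0.05. The shares of all gene names that passed were 0% for controls, 0.0146% for day 2 and 0.0109% for day 5. At 0%, *Nfil3* itself did not pass in control DRGs, at 8.44 to 9.03 in WT and 2.94, 3.80, 4.37 and 7.59 in KO. The lack of calls there thus does not show that the 9 genes are alike in WT and KO. The differences ranged from -0.41 (*Gfap*) to 0.14 (*Slc1a3*) in control DRGs, from -0.14 (*Glul*) to 0.23 (*Fabp7*) at day 2, and from -0.20 (*Gfap*) to 0.19 (*Cdh19*) at day 5. Leaving *Gfap* aside, the 95% confidence intervals of these differences reached from -0.38 to 0.44 in control DRGs, from -0.37 to 0.55 at day 2 and from -0.38 to 0.49 at day 5, and for *Gfap* they reached from -1.10 to 0.93. Each gene has its own interval, for *Glul* at day 2 from -0.35 to 0.06. With 4 samples per group, differences inside a gene's own interval were not excluded. The time*genotype interaction passed for 0 of 9 genes in limma, with 0 at an unadjusted p under 0.05. It passed for 0% of all gene names, so *Nfil3* did not pass there either. The study used SAM as well, which was not run here, and reported a set of genes whose lesion response differed in KO.

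Of the 12 arrays, 6 carried a WT and a KO sample of the same time point, which gives a comparison within arrays. On these 6 arrays *Glul* was higher in KO on 3, with differences from -0.27 to 0.29, and *Fabp7* on 4, from -0.15 to 0.38. *Slc1a2* and *Slc1a3* were each higher in KO on 5 of 6 arrays, with medians of 0.20 and 0.08 and ranges from -0.37 to 0.34 and from -0.17 to 0.46. *Gfap* differed by -1.06 and -0.82 in controls, by 0.66 and 0.24 at day 2, and by -0.36 and -0.12 at day 5. Over all time points together, the differences of each of the 9 genes fell on both sides of 0.

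The members did not move as 1 group across the 24 samples. *Gfap* and *Glul* had a Pearson correlation of 0.76, *Cdh19* and *Glul* of 0.69, and *Cdh19* and *Gfap* of 0.63, while *Fabp7* ran against *Glul* (-0.76) and *Cdh19* (-0.73). *Fabp7* and *Slc1a3* had 0.73. These values are descriptions over samples that share groups, arrays and slides. After the group means were taken out, *Gfap* and *Glul* had 0.01, *Cdh19* and *Glul* -0.10, *Cdh19* and *Gfap* 0.10, *Fabp7* and *Glul* -0.0018, and *Cdh19* and *Fabp7* -0.14, so these values came from the differences between group means. *Fabp7* and *Slc1a3* had 0.65 within groups, and *Glul* and *S100b* had -0.58, beside -0.56 over all samples. *Gfap* and *Slc1a3* had -0.09 over all samples and 0.52 within groups, and *Glul* and *Slc1a3* -0.29 and 0.37.

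**Figure D4:**
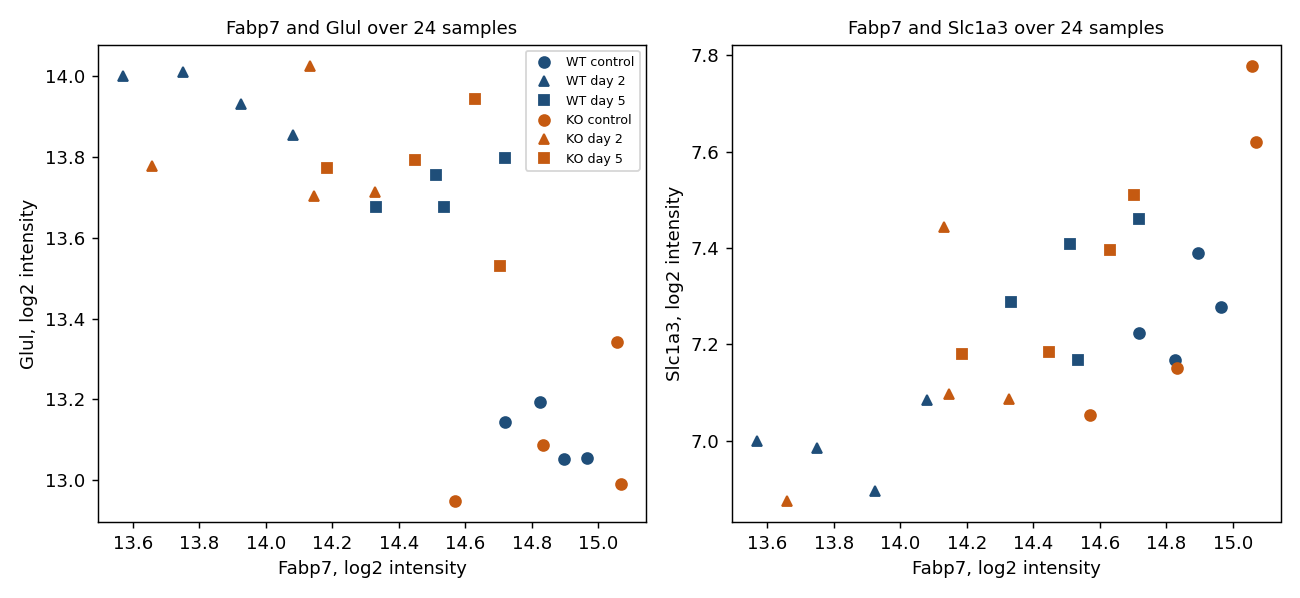
Log2 intensity of *Fabp7* (x axes) against *Glul* (left, y axis) and *Slc1a3* (right, y axis) in the 24 samples, with WT in blue and KO in orange and circles for control, triangles for day 2 and squares for day 5. *Fabp7* and *Glul* run in opposite directions between groups (Pearson correlation -0.76 over all samples, -0.0018 within groups), and *Fabp7* and *Slc1a3* rise together (0.73 and 0.65).

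For each member, the genes with the most similar pattern were sought among 14509 gene names with a probe well above background in all 24 samples, by Pearson correlation over the 24 samples. For *Glul* they were *Uck2* (0.976), the transcript TC1602638 (0.969) and *Star* (0.964), and for *Gja1* they were *Clec16a* (0.934), *Trim44* (0.909) and *Mtor* (0.909). *Cdh19* was followed by *Myo9b* (0.900), *Agps* (0.866) and *Baz1a* (0.854), *Gfap* by *Mcart1* (0.886), *Heca* (0.880) and *Agfg1* (0.878), and *Fabp7* by *Kif21b* (0.875), *Thumpd3* (0.874) and 3110052M02Rik (0.871). *S100b* was closest to *Hopx* (0.853), *Gpx4* (0.853) and *Calml4* (0.838), and *Apoe* to *Nudt16* (0.862), *Rtn1* (0.844) and *Gnaz* (0.808). The transporters had weaker partners, *Mob1b* (0.807), *Klf12* (0.778) and *Nsdhl* (0.743) for *Slc1a3*, and *Acsl4* (0.736), *Exoc5* (0.717) and *Zbtb6* (0.706) for *Slc1a2*. None of the genes named here is another of the 9 members.

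Other genes of satellite glia and of the pathways of the members are described from the mean change of both genotypes, at which 9.39% of all gene names were called higher and 12.9% lower at day 2, and 10.2% higher and 13% lower at day 5. On this measure 3 of the 9 members were higher and 3 lower at each time point. *Glul*, *Gfap* and *Cdh19* were higher at both, and *Fabp7* and *Gja1* were lower at both. *Apoe* was lower at day 2 and *S100b* at day 5. Of 18 other satellite glia genes, 4 were higher and 4 lower at day 2, and 5 higher and 4 lower at day 5, with median changes of 0.05 and -0.03 against -0.02 and -0.03 over all gene names. *Aldoc*, a glycolytic enzyme of glia, changed by -0.48 and -0.72 (limma adjusted p = 0.000183 and 1.11e-06), and *Bcan*, an extracellular matrix proteoglycan, by -0.68 and -0.67 (adjusted p = 0.000484 and 0.00044). *Cd9*, a tetraspanin, changed by -0.25 and -0.64 (limma adjusted p = 0.0462 and 1.5e-05), and *P2ry12*, a purinergic receptor that macrophages also carry, by 0.33 and 0.60 (adjusted p = 0.0343 and 0.000357).

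Of 10 further genes of the glutamate and glutamine cycle, 1 was higher and 2 were lower at day 2, and 1 was higher and 3 were lower at day 5. *Slc38a1*, a glutamine transporter, rose by 0.32 and 0.61 (limma adjusted p = 0.012 and 2.74e-05). *Slc1a1*, the glutamate transporter of neurons, fell by 1.12 and 0.77 (adjusted p = 5.07e-07 and 4.26e-05), and *Gls2*, a glutaminase, by 0.64 and 0.63 (0.000126 and 0.000127). *Slc1a5* was lower at day 5 by -0.25 (limma adjusted p = 0.0381). Of the neighbours of *Gja1*, 10 connexins and pannexins on the array, *Gjc1* rose by 0.48 and 0.34 (adjusted p = 0.000245 and 0.00416), and at day 2 *Gja4* rose by 0.37 (adjusted p = 0.0265) and *Gjb2* fell by 0.85 (0.03). *Gjc3*, a connexin of myelinating glia, was higher at day 5 (0.48; adjusted p = 0.0209).

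Beside *Apoe*, 11 genes of apolipoproteins and sterol transport were examined, of which 1 was higher and 1 lower at day 2 and 3 were higher and 1 lower at day 5. *Abca1*, which exports cholesterol onto apolipoproteins, rose by 1.68 and 1.96 (limma adjusted p = 8.62e-11 and 6.36e-12), and *Abcg1*, another sterol transporter, fell by 0.59 and 0.75 (adjusted p = 9.3e-05 and 4.07e-06). *Apod* and *Apoc1* were higher at day 5 by 0.95 and 0.52 (limma adjusted p = 0.00204 and 0.00564). Of 12 genes that rise in reactive glia, 6 were higher at day 2 and 6 at day 5, where 1 was lower, with median changes of 0.53 and 0.37. *Timp1*, a protease inhibitor, rose by 3.14 and 2.19, *Hspb1*, a small heat shock protein, by 1.23 and 0.91, and *Cd44*, a hyaluronan receptor, by 0.83 and 0.34 (limma adjusted p from 3.08e-12 to 0.0115). *Serpina3n* rose at day 2 (0.48; adjusted p = 9.37e-05), with 0.15 at day 5. These genes are also expressed by injured neurons and other cells of the ganglion.

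**Figure D5:**
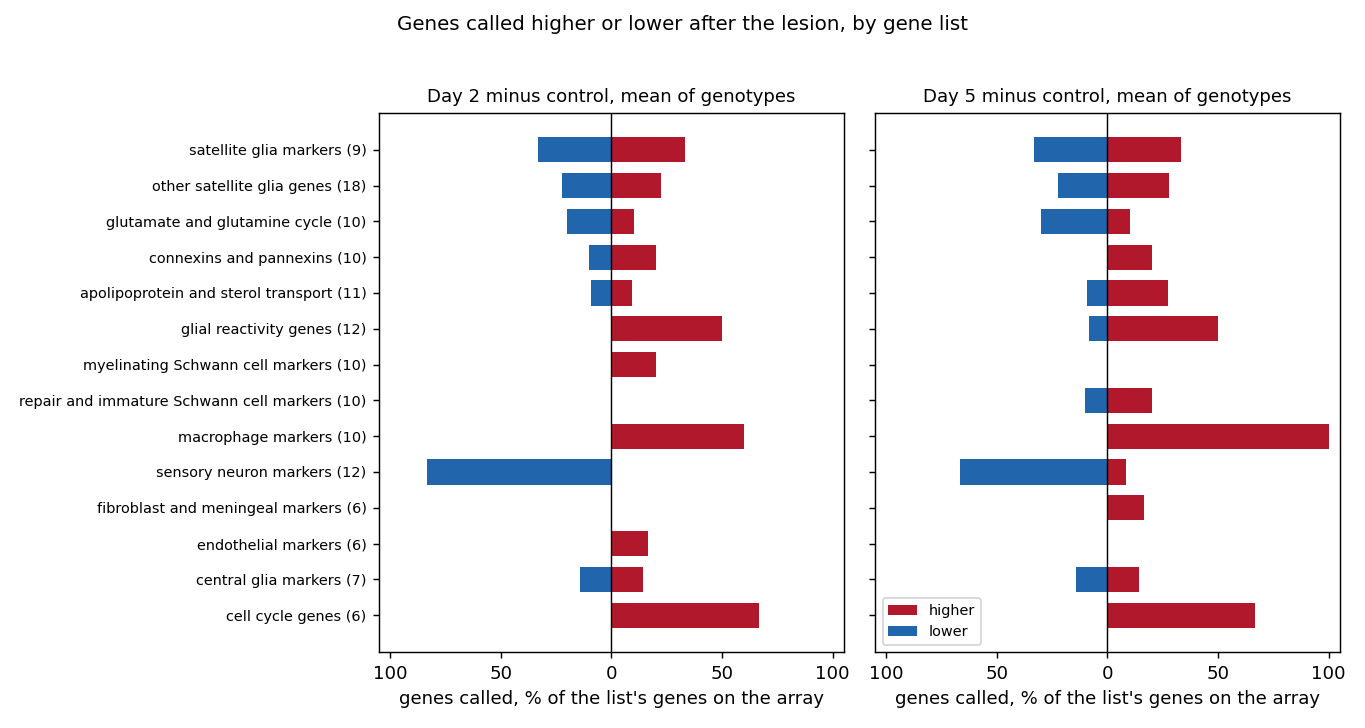
Share of the genes of each list on the array (number in brackets) called higher (red, to the right) or lower (blue, to the left) at day 2 and day 5, from the mean change of both genotypes at an adjusted p of 0.05. The 9 satellite glia markers split evenly, with 3 higher and 3 lower at both times, while all 10 macrophage markers were higher at day 5.

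Markers of other cells moved with the lesion as well, and their part in the changes of the 9 genes was not tested. Macrophage markers were called higher for 6 of 10 genes at day 2 and 10 of 10 at day 5, with *Cx3cr1*, *Csf1r*, *Adgre1* and *Tyrobp* up by 1.78, 1.76, 1.89 and 1.69 at day 5. Their summed linear intensity was 1844 to 3210 in controls, 2484 to 4776 at day 2 and 5806 to 9246 at day 5. In WT the day 2 sums, 3443 to 4776, lay above those of the controls, 1934 to 3210. In KO they overlapped, with 2484 to 4488 at day 2 and 1844 to 3039 in controls. In both genotypes the day 2 sums lay below those of day 5. Cell cycle genes were higher for 4 of 6 genes at both time points (*Birc5* by 0.75 and 0.61, *Top2a* by 1.00 and 0.96, *Ccna2* by 0.99 and 0.85, *Mki67* by 0.98 and 0.93), with a sum of 745 to 911 in controls, 1152 to 1789 at day 2 and 1067 to 2003 at day 5.

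Sensory neuron markers were lower for 10 of 12 genes at day 2 and for 8 at day 5, where 1, *Tubb3*, was higher (0.43), and *Nefh* and *Snap25* changed by -0.82 and -0.76. Their sum fell from 528228 to 662781 in controls to 432322 to 508707 at day 2 and 416872 to 527778 at day 5. Myelinating Schwann cell markers were higher for 2 of 10 genes at day 2 (*Pmp22* by 0.45 and *Mal* by 0.72) and 0 at day 5, while *Fa2h*, at 0.71, did not pass. Their sum ranged from 63620 to 102527 in controls, from 70139 to 202145 at day 2 and from 65779 to 102754 at day 5. Markers of repair and immature Schwann cells were called for 0 of 10 genes at day 2 and for 3 at day 5 (*Runx2* 0.41, *Ncam1* 0.29, *Ngfr* -0.50), and 2 of 10, *Olig1* and *Artn*, were well above background in 0 samples.

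Fibroblast markers were called for 0 of 6 genes at day 2 and 1 at day 5 (*Lum*, 0.81), and endothelial markers for 1 of 6 at day 2 (*Pecam1*, 0.28) and 0 at day 5. Markers of central glia were at background in part: of 7 genes, 3 were well above background in all samples, *Opalin* in 0 and *Mog* in 2 of 24. *Aldh1l1* rose by 0.38 and 1.31 and *Aqp4* changed by -0.76 and -0.91, so *Gfap* rose while *Aqp4*, a water channel of astrocytes, was lower (limma adjusted p = 0.00139 and 0.000187). Between KO and WT 0 genes of these lists passed in any of the 3 comparisons in limma, the smallest adjusted p being 0.999856.

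Promoter sequences of RefSeq (GRCm38.p6; 250 bases before and 50 after a start site) were found for 8 of the 9 genes, with 10 promoters in all, and *Cdh19* had none in the table. The motif of NFIL3 and related bZIP factors, TTANGTAA on either strand, was present in 0 of these 10 promoters, beside 2.32% of all 32851 promoters. TTCNNNGAA, the palindromic motif of STAT factors, was found in those of *Gfap* and *Slc1a3* (8.3% of all promoters), TGANTCA, the palindromic motif of AP-1, in that of *Gja1* (7.81%), and ACAAAG, bound by SOX factors, on either strand in 1 of the 3 promoters of *Apoe* (18.7%). The motifs begin 2, 96, 19 and 54 bases before the start site and do not overlap with each other. They are matches of letters in these windows and no measure of binding. The stretches of *Gfap* (chr11:102897171-102897300, minus strand), *Slc1a3* (chr15:8710778-8710907, minus strand) and *Gja1* (chr10:56377200-56377329, plus strand), 100 bases before to 30 after the start site, are shown because they hold the motifs, which are in capitals:
Gfap: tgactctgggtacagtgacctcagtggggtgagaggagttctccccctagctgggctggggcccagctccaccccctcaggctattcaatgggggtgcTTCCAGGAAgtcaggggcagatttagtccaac
Slc1a3: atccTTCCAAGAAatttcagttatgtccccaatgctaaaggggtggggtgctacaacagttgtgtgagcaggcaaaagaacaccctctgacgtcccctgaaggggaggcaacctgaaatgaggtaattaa
Gja1: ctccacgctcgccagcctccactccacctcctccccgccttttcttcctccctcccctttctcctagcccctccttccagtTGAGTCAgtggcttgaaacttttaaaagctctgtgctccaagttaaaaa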

How the data were processed

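Scans of 4x44K arrays were quantified with Agilent Feature Extraction. For every spot and channel the authors deposited raw intensity values of foreground and background, and other columns with flags for outliers, saturation and signal well above background. Each channel served as 1 sample, grouped by its title. Edwards background correction and quantile normalization follow the methods of the study, and the use of mean foreground and median background was chosen here. Both steps ran over the 24 channels with limma 3.58.1 (R 4.3.3, statmod 1.5.0). After background correction log2 was taken, control and outlier spots were left out, and quantile normalization followed. The normalized log2 values of the spots of a probe were then averaged. Of 45018 spots, 43379 were not controls, and 417 probe values were missing, 0 of them in the 9 genes. The group means of all 24 samples were fitted with lmFit and eBayes, with Benjamini-Hochberg adjustment over 41174 probes. Background shares refer to 27398 gene names by their brightest probe. Precision is limited by 4 samples per group.

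The 9 genes, the other lists and the motifs were chosen with earlier results of these data known. Genes named are all members with every probe, up to 4 per other list with the smallest lesion p, *Nfil3*, and the 3 genes most correlated with each member. *Sprr1a* and the list genes named as not past the test were chosen after their values were seen. The sequence of 1 *Gfap* probe and the values of some list genes are not reported here. Probe coordinates come from the array annotation (mm9) and promoter coordinates from GRCm38.p6, so they are not comparable. Alternatives changed the background correction (none, or normexp with an offset of 50), the signal (median foreground, or processed signals at their 75th percentile), the normalization (loess and Aquantile), the outlier and dim probe filters (29805 probes kept by the latter), the summary per gene, the model terms (dye, slide, replicate number, array, intensity trend) and the samples, each left out in turn. The model fit was tested on simulated data with independent noise and changes added only to probes well above background in all samples. Effects of shared arrays and slides were not simulated.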

Additional observations from a re-analysis of the deposited data

Results flagged for a closer look

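Of 54 groups of 4 samples (9 genes in 6 groups), 1 held a sample far from the others. Chance alone gives about 1 such group in every 20, so 1 of 54 is no more than chance gives. *Gfap* in WT control 2 was 3.01, against 4.11 in the nearest other WT control, a gap of 0.881 of the range of the group, above Dixon's 95% limit. The probe was not well above background in this sample, and both WT calls of *Gfap* were lost without it (changes of 0.81 and 0.82). WT control 2 shared an array with a WT day 2 sample, and the part of that in this value was not tested.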

How the results depend on the processing

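Numbers are members called, of 9. With replicate number as a block, 8 passed the lesion test, 4 at day 2 and 3 at day 5 in WT, and 5 and 2 in KO. The WT day 2 call of *Gja1* was lost with the replicate block (limma adjusted p = 0.0674). Same-numbered samples of different groups had correlations of their deviations from -0.59 to 0.59, with 27 of 60 pairs over 0.1, and numbers 1 and 2 were on 1 dye, so they were not read as pairs. KO day 5, with 2, gave 1 without background correction, 4 with dim probes filtered and 1 without the 4 arrays that carried a control and a lesioned sample, a setting chosen after seeing the data. WT day 2, with 5, gave 3 with the median foreground, 3 with loess and Aquantile and 3 without these 4 arrays, and KO day 2, with 5, gave 3 without them. WT day 5 minus day 2, with 1, gave 0 with processed signals, 0 with slide as a block and 0 without these arrays. With 1 sample left out the counts ranged from 6 to 8 in the lesion test, from 2 to 5 at WT day 2, from 1 to 3 at WT day 5, from 4 to 5 at KO day 2, from 2 to 3 at KO day 5 and from 0 to 1 for WT day 5 minus day 2. Between genotypes, in the interaction and for KO day 5 minus day 2 the count was 0 in all alternatives run. The cause was not tested. Among single changes, 46 lost and 12 gained a call, and 0 called changes reversed. Signal near background limits *Gfap*.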
